A study of Mus musculus with 4 samples.

Results

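The 8 genes Gal, Rnase10, Rnase4, Rnase12, Ackr3, Mdga1, Grip1 and Hspb8 were chosen, out of 32285 genes in the count matrices, because earlier results of these data showed them high in B-lineage cells of an Mll3/4 deleted bone marrow library and low elsewhere. Levels and detection in the populations compared here were therefore used in the choice, and they are described without any test. The B-lineage cells were those with at least 3 UMIs (unique molecular identifiers, each standing for 1 captured transcript) of Cd79a, a signalling subunit of the B-cell receptor, and the Mll3/4 deleted library held 12591 of them among 13747 kept cells. All cells carried the surface antigen CD45.2, which tells donor from host blood cells, and came from bone marrow 10 weeks after transplantation. The groups had 1 library each: Kit+ cells of a control, of the Mll3/4 deleted and of the Mll3/4SI genotype, and B220lo cells of a control. Kit is a receptor found on stem cells and progenitors, and a low level of B220 marks early B-lineage cells. The letters SI are not explained in the sources used here, nor is the way the genes were deleted or the number of mice behind a library. With 1 library per group no difference could be tested, and the intervals below are exact 95% Poisson intervals for counts and exact 95% binomial (Clopper-Pearson) intervals for shares, which cover counting error only.

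Pro-B cells are B-lineage precursors that join the gene segments of the immunoglobulin heavy chain, make terminal transferase (Dntt) and the surrogate light chain (Vpreb1 and Igll1), and depend on the transcription factors Ebf1 and Pax5. MLL3 and MLL4, encoded by Kmt2c and Kmt2d, are histone methyltransferases that act mainly at enhancers. None of the 8 genes is a textbook gene of pro-B cells. Gal encodes the neuropeptide galanin. Rnase4, Rnase10 and Rnase12 belong to the secreted ribonuclease A family, Ackr3 is an atypical receptor for the chemokine CXCL12, and Mdga1 is a membrane-anchored protein of the immunoglobulin superfamily that binds neuroligins. Grip1 is a scaffold with several PDZ domains that binds glutamate receptors, and Hspb8 is a small heat-shock protein that works with the co-chaperone BAG3.

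The 3 ribonuclease genes lie in 1 cluster on chromosome 14, with Rnase9 and Rnase11 between Rnase10 and Rnase12 and Olfr750 between Rnase12 and Rnase4, whereas the other 5 are on 5 further chromosomes (Gal 19, Ackr3 1, Mdga1 17, Grip1 10, Hspb8 5). In the GENCODE M21 annotation of GRCm38, Rnase10 (ENSMUSG00000021872) runs from 51007751 to 51010758 on the plus strand of chromosome 14. Rnase12 (ENSMUSG00000068407) runs from 51056698 to 51057661 on the minus strand, and Rnase4 (ENSMUSG00000021876) from 51091077 to 51106151 on the plus strand. The 250 bases before the RefSeq start (GRCm38.p6) are shown for Rnase10 and Rnase4, because these genes of the cluster were both high in the deleted B cells, and for Gal, Ackr3 and Hspb8 as genes on other chromosomes. The window before Rnase12 overlaps an annotated untranslated region and is not printed. Capitals mark matches on either strand to 1 of 7 motifs searched, CAGCTG and CAGGTG (E-boxes), CCCNNGGG (core of the EBF1 site), TGTGGT (RUNX), GGAAGT (ETS), TGGGAA (Ikaros) and TGTTTAC (FOX), which can overlap each other.
Rnase10 chr14:51007501-51007750 (plus strand): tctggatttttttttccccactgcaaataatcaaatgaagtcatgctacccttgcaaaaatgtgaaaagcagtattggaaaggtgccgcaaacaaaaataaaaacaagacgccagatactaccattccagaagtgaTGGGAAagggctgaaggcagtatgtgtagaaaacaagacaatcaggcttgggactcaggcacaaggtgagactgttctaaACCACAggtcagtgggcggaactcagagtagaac
Rnase4 chr14:51090827-51091076 (plus strand): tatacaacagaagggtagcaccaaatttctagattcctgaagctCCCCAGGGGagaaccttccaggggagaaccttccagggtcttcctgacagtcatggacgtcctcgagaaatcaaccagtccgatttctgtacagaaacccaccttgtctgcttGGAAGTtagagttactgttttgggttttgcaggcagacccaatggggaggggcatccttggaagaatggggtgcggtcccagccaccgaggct
Gal chr19:3414545-3414794 (minus strand): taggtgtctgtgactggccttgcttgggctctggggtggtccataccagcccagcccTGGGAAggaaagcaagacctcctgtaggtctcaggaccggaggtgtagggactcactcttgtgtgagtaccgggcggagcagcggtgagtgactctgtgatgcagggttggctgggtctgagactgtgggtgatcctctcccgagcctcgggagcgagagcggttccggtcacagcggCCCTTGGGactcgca
Ackr3 chr1:90203730-90203979 (plus strand): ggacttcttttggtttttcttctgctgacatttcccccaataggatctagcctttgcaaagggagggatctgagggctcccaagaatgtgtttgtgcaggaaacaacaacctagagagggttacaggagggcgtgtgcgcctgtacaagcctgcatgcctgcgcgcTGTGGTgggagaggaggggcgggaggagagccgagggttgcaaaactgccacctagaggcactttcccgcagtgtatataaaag
Hspb8 chr5:116422865-116423114 (minus strand): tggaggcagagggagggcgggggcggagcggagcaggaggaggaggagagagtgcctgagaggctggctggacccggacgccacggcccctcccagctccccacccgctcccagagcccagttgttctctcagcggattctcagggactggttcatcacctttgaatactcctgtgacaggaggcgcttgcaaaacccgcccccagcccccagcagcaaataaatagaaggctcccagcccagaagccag
No motif was in the windows of all 8 genes. The 8 genes had 12 windows, since some have several RefSeq starts, and shares over all promoters are over the same kind of window. TGGGAA was in 5 of the 12 (Gal, Rnase10, Rnase12 and Rnase4) and in 21.6% of all 32851 RefSeq promoters, and CCCNNGGG was in 3 (Gal, Mdga1 and Rnase4) and in 11.8% of all. TGTGGT was in 3 windows (Ackr3 and Rnase10, 14.0% of all promoters), GGAAGT in 3 (Rnase10 and Rnase4, 19.7%), CAGCTG in 1 (Rnase4, 13.0%) and CAGGTG in 1 (Grip1, 17.2%). The windows of Rnase10 overlap, and its TGTGGT match is the same site in each. For Rnase4, TGGGAA and CAGCTG were in the window of its second start, from 51095750 to 51095999, and GGAAGT of Rnase10 was in that of its second start, neither of which is printed. TGTTTAC, held by 3.17% of all promoters, was in none of the 12 windows of the 8 genes. The window of Rnase10 held 3 CpG dinucleotides and that of Rnase4 held 5, against a median of 6 over all promoters, while the window of Gal held 11 and that of Hspb8 held 10. Such matches describe the letters of these windows and show neither binding nor a cause. The printed window of Rnase4 is in RefSeq also the window before the start of Ang, whose locus overlaps Rnase4, so reads may have been split between the pair.

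The libraries held 12205 to 16861 barcodes and 85445426 to 166327773 UMIs. Median depth was 6458 UMIs in the deleted B cells, 3077 in the 10839 control B220lo cells with at least 3 Cd79a UMIs and 4236 in the 1338 of these with at least 1 Dntt UMI, called the pro-B gate here. In the deleted B cells all 15 listed B-lineage markers were counted, at a summed 18969.7 CPM (counts per 1e+06 UMIs of the population), and the 5 markers of later B cells (Il2ra, Ms4a1, Cd2, Cd74, Igkc) summed to 10.3 CPM against 3774 CPM in the B220lo B cells. Dntt was detected in 97.8% of the deleted B cells, Vpreb1 in 99.3% and Kit in 83.9%, so their transcripts were those of pro-B cells. Kit was detected in 2.42% of the B220lo B cells and in 13.0% of the pro-B gate, so the sort differed along with the genotype. Sex differed too. In the deleted library the Y-linked genes Ddx3y, Eif2s3y, Kdm5d and Uty summed to 149 CPM and Xist to 0.314 CPM, and in the other 3 they ran from 0.0244 to 0.515 CPM and from 422 to 547 CPM. Genotype, sex and, against B220lo cells, sort cannot be told apart in these comparisons. The targeted gene Kmt2c had 51.8 CPM in the deleted library, 58.1 CPM in control Kit+ cells and 144 CPM in control B220lo cells. Kmt2d had 20.1, 24.0 and 41.0 CPM. The deleted library was mostly B cells and the control Kit+ library held 47, so cell type differs in these values as well. Counts near the start of a transcript do not show whether exons further along were deleted. Markers of 9 granulocyte genes summed to 1357 CPM in the deleted B cells, 2583 CPM in the B220lo B cells and 37069 CPM in the deleted cells without Cd79a, and the part of free RNA from other cells was not tested. Pairs of libraries shared 214 to 345 barcode sequences.

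All 8 genes were at least 4-fold higher in deleted B cells than in control B220lo B cells, where 5.23% of 13058 genes with enough counts were. Because this contrast chose the genes, nothing is read from that count. By the log2 ratio with 1 CPM added to each level, which ranks genes with a very low control level less high than the plain ratio, Rnase10 ranked 1 of all genes tested, Rnase12 ranked 9, Hspb8 14, Gal 15, Ackr3 16, Rnase4 26, Mdga1 31 and Grip1 157. The plot of levels by cell population shows the gap between the deleted B cells and the other populations plotted. Some smaller groups that are not plotted were higher. Deleted cells with 2 Cd79a UMIs had 377 CPM of Grip1 and 110.4 CPM of Mdga1, against 164 and 87.4 CPM in the deleted B cells.

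**Figure D1:**
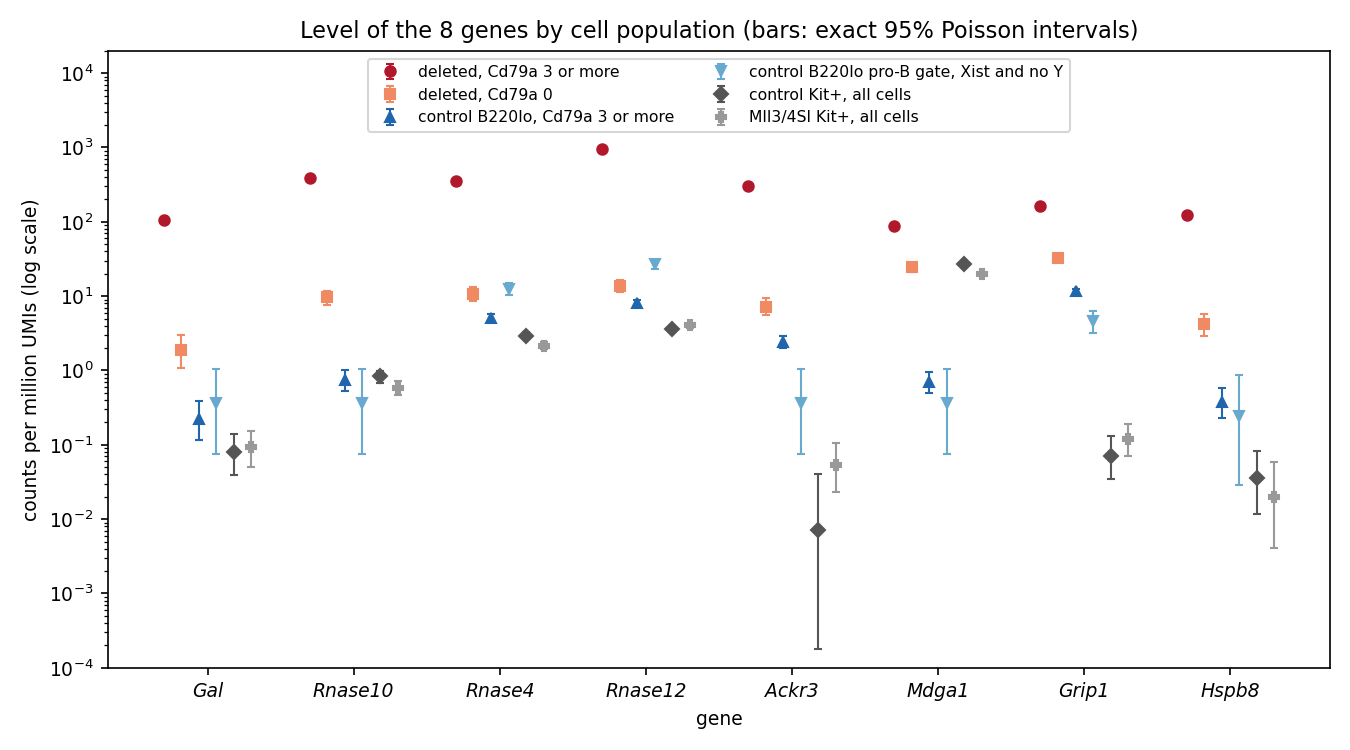
Level of each of the 8 genes in 6 cell populations, in CPM on a log axis, with exact 95% Poisson intervals that are hidden behind the larger counts. The deleted B cells lie highest of these for every gene, from 87.4 CPM for Mdga1 to 953 CPM for Rnase12. The next highest population is the deleted cells without Cd79a for 5 genes and control Kit+ cells for Mdga1. For Rnase4 and Rnase12 it is the B220lo pro-B gate, plotted only for its 1022 cells with Xist and no Y-linked UMI.

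Rnase12 was the most abundant of the 8 genes. It was counted at 953 CPM (947 to 960) in deleted B cells and detected in 94.6% of them (94.2 to 95.03). Control B220lo B cells had 8.20 CPM (7.46 to 9.003) in 1.88% of cells, control Kit+ cells 3.67 CPM in 3.17%, and Mll3/4SI Kit+ cells 4.05 CPM in 3.504%. The deleted cells without Cd79a were near these, at 13.6 CPM of Rnase12. The level of Rnase12 in the deleted B cells was thus 116-fold (106 to 128) that of the B220lo B cells.

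Rnase10, whose protein lacks the catalytic residues of the family, was at 383 CPM (380 to 387) in the deleted B cells and was detected in 66.6% of them. Its level was 0.742 CPM (0.530 to 1.01) in control B220lo B cells, 0.831 CPM in control Kit+ cells and 0.577 CPM in Mll3/4SI Kit+ cells. The deleted B cells stood 517-fold (379 to 723) above the B220lo B cells in Rnase10. Among the B220lo B cells with Xist and no Y-linked UMI the level was 0.298 CPM and the ratio 1288-fold (753 to 2418). Rnase4 was at 350.2 CPM (347 to 354) in deleted B cells, in 82.5% of cells. It was at 5.16 CPM (4.57 to 5.80) in B220lo B cells, 2.95 CPM in control Kit+ cells and 2.17 CPM in Mll3/4SI Kit+ cells. Its ratio to the B220lo B cells was 67.9-fold (60.3 to 76.7), lower than that of Rnase10 at a like level in the deleted B cells.

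Gal differed from the others in that few cells held nearly all of it. The deleted B cells had 107 CPM of Gal (105.3 to 109.4), but only 1061 of the 12591 cells, or 8.43% (7.95 to 8.93), held a UMI. The 271 cells with at least 10 UMIs carried 80.0% of all Gal UMIs, and the highest cell held 246. Gal thus averaged 9.91 UMIs per positive cell, against 7.83 for Rnase12, which was found in nearly every cell. Thinned to 2000 UMIs per cell, the variance of Gal over cells was 17.1 times its mean, against 1.20 for Hspb8. In the other libraries Gal was at 0.223 CPM (12 UMIs) in B220lo B cells, 0.0788 CPM (11 UMIs) in control Kit+ cells and 0.0928 CPM (14 UMIs) in Mll3/4SI Kit+ cells, and no cell there held more than 2 UMIs.

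Ackr3 takes up CXCL12 without the usual G-protein signal. It stood at 300.1 CPM (297 to 304) in deleted B cells, in 58.9% of cells, and at 2.43 CPM (2.03 to 2.88) in B220lo B cells. Control Kit+ cells had 1 UMI of Ackr3 in 11051 cells and Mll3/4SI Kit+ cells had 8 UMIs in 11501 cells. Hspb8 was counted at 123 CPM (121 to 125) in 48.3% of the deleted B cells. It had 20 UMIs (0.371 CPM) in B220lo B cells, 3 of them (0.0687 CPM) in those with Xist and no Y-linked UMI, 5 UMIs in control Kit+ cells and 3 UMIs in Mll3/4SI Kit+ cells. Hspb8 was thus close to undetected outside the deleted library. Ackr3 was so in the control and Mll3/4SI Kit+ libraries, which held few B cells. In the B220lo B cells with Xist and no Y-linked UMI, Ackr3 still had 79 UMIs, in 71 cells.

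Mdga1 and Grip1 set themselves apart by their levels in control cells. Mdga1 was at 87.4 CPM (85.6 to 89.3) in deleted B cells and was detected in 34.7% of them. It stood at 26.9 CPM (26.1 to 27.8) in control Kit+ cells, where 23.7% of cells held a UMI, and at 20.0 CPM (19.3 to 20.7) in Mll3/4SI Kit+ cells, but at 0.705 CPM in B220lo B cells. Kit+ cells without the deletion thus already carried Mdga1, and it was the 1 gene of the 8 under 4-fold against control Kit+ cells, at a log2 ratio of 1.66. Grip1 was at 164 CPM (162 to 167) in 48.9% of deleted B cells. Its level was 11.7 CPM (10.8 to 12.6) in B220lo B cells, the highest of the 8 genes there, and 0.0717 CPM in control Kit+ cells and 0.119 CPM in Mll3/4SI Kit+ cells. Accordingly Grip1 had the smallest ratio against B220lo B cells, 14.0-fold (13.0 to 15.2).

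Against the other populations the counts past 4-fold were 8 of 8 for the B220lo pro-B gate (4.27% of all genes tested), 7 of 8 for control Kit+ cells (6.3%), 8 of 8 for Mll3/4SI Kit+ cells (5.51%) and 7 of 8 for deleted cells without Cd79a (6.45%). These counts belong to the choice of the genes as well, and comparisons with the same deleted B cells share them. Mdga1 was the gene that missed in both cases, with a log2 ratio of 1.80 against the cells without Cd79a. With all cells thinned to 2000 UMIs, 6 of 8 passed against the cells without Cd79a, as Grip1 went from a log2 ratio of 2.30 to 0.46. The control Kit+ and Mll3/4SI Kit+ libraries held only 47 and 28 B cells by the Cd79a rule, too few to compare. In the 47 control Kit+ B cells Gal, Ackr3, Mdga1, Grip1 and Hspb8 had no UMI, which by a floor of 3 cells allows up to 6.38% of cells with a UMI of each and does not limit the cells that express it, Rnase12 had 10 UMIs, Rnase4 had 4 and Rnase10 had 1.

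Detection was also taken at equal depth. After every cell was thinned to 2000 UMIs, which left out 306 shallower deleted B cells and 1291 of the B220lo B cells, Rnase12 was detected in 79.4% of the deleted and 0.859% of the B220lo B cells. Rnase4 was detected in 50.9% and 0.890%, Rnase10 in 44.8% and 0.115%, and Ackr3 in 36.5% and 0.461%. Grip1 stood at 24.5% and 1.90%, Hspb8 at 22.8% and 0.0524%, Mdga1 at 16.4% and 0.115%, and Gal at 5.75% and 0.0209%. These shares belong to the choice of the genes as well, and nothing is read from their direction.

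A handful of B220lo cells carried Y-linked UMIs and some of the 8 genes, and they bear on how low the control levels are. Among the 10839 B220lo B cells, 11 held Y-linked UMIs and no Xist. These 11 cells, all in the pro-B gate, held 23 of the 40 Rnase10 UMIs, 30 of the 131 Ackr3 UMIs and 8 of the 20 Hspb8 UMIs of that library's B cells, and 7 of them held 4 or more of the 8 genes. None of the 11 shared its barcode with the deleted library. Of the 28 Mll3/4SI Kit+ B cells, 2 held Y-linked UMIs and no Xist, with 26 UMIs of Rnase12 and, in 1 cell, 6 of Grip1. How these cells came to be in the libraries was not tested.

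The pro-B gate was next restricted to its 1022 cells with Xist and no Y-linked UMI. This left out the 11 cells above, 6 cells with both kinds of UMI and 299 cells with neither, which had a median of 2794 UMIs. In the 1022 cells Rnase10, Ackr3, Mdga1 and Gal had 3 UMIs each (0.361 CPM, 0.0745 to 1.05) and Hspb8 had 2. Over the whole gate, Rnase10 had 30 UMIs (3.17 CPM) and Ackr3 had 40 (4.23 CPM). Rnase12 was lower too, at 26.7 CPM (23.3 to 30.5) against 36.8 CPM in the whole gate, but was still detected in 106 of the 1022 cells (10.4%). Rnase4 was at 12.5 CPM (10.2 to 15.2) against 16.4 CPM, in 89 cells (8.71%). Grip1 was at 4.57 CPM (3.24 to 6.28) against 15.8 CPM in the whole gate. Of the 149 Grip1 UMIs of the gate, 70 were in the 6 cells with both kinds of UMI, 21 in the 11 cells with Y-linked UMIs alone and 20 in the 299 cells with neither. The deleted B cells stood 35.7-fold (31.3 to 40.9) above these cells in Rnase12, 28.0-fold (23.1 to 34.3) in Rnase4 and 35.9-fold (26.1 to 50.7) in Grip1.

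Rnase12 and Rnase4 were detected in more of these control cells than in the B220lo cells without Cd79a, whose median depth of 5140 UMIs was close to their 5386.5. Rnase12 was found in 0.554% (0.287 to 0.966) of the cells without Cd79a and Rnase4 in 2.86% (2.20 to 3.65), against 10.4% (8.57 to 12.4) and 8.71% (7.05 to 10.6) in the 1022 cells. Over the B220lo B cells with Xist and no Y-linked UMI, most of which had no Dntt UMI, Rnase12 was at 6.76 CPM and Rnase4 at 4.65 CPM, so both were higher in the pro-B gate. The pro-B gate held 174 cells with a Kit UMI, a step added after the data were seen, with 158 UMIs of Rnase12, 97 of Grip1, 65 of Rnase4, 32 of Ackr3, 25 of Rnase10, 17 of Hspb8, 12 of Mdga1 and 3 of Gal. Of these, 136 cells with a median of 9654 UMIs also had Xist and no Y-linked UMI. Rnase12 was at 28.0 CPM in 20.6% of the 136 cells and Rnase4 at 17.0 CPM in 18.4%. Rnase10, Ackr3 and Mdga1 had no UMI in them, which by the same floor allows up to 2.21% of cells with a UMI, and Gal, Grip1 and Hspb8 had 2, 2 and 1 UMIs. In the deleted B cells a UMI of Rnase10 was found in 66.6% of cells, of Ackr3 in 58.9% and of Mdga1 in 34.7%, whose median depth was 6458 UMIs.

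Within the deleted library the 8 genes were also measured in cells without Cd79a, a contrast that the choice of the genes had used. In the 383 cells without Cd79a that carried at least 10 UMIs of the granulocyte genes Mpo, Elane, Prtn3 and Ctsg, with a median of 17678 UMIs per cell, Rnase12 was at 0.909% of its level in the deleted B cells, Ackr3 at 0.299%, Rnase10 at 0.624% and Gal at 0.975%. Grip1 was at 0.820% there, Hspb8 at 1.70% and Rnase4 at 1.79%. The 14 listed B-lineage markers other than Cd79a ran from 0.432% to 11.9% in the same cells, with a median of 0.720%. Ackr3 lay below the range of these markers. How many of all genes lay at such levels was not counted, so nothing is read from how many of the 8 did. Rnase12 was still seen in 11.2% of these granulocytic cells, against 94.6% of the deleted B cells at a lower depth. Mdga1 lay above the range of the markers at 21.2% (17.6 to 25.3), or 18.5 CPM, beside 26.9 CPM in control Kit+ cells. In the 48 erythroid cells Mdga1 was again the highest of the 8 genes at 20.4%, with a median of 0.761% over the 8.

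The 163 cells without Cd79a that passed neither gate held more, and 1 further cell of the 595 without Cd79a passed both. Grip1 was at 307 CPM in them, 187% (165 to 211) of its level in the deleted B cells, and Mdga1 was at 88.7% (68.9 to 112). The early B-lineage factor Ebf1 was at 139% in the same 163 cells and Pax5 at 78.2%, whereas Vpreb1 was at 6.17% and Igll1 at 9.80%. Rnase12 was at 6.46% and Gal at 8.50%. The 163 cells were mixed, with granulocyte markers at 18663 CPM, megakaryocyte markers at 397 CPM and mast cell or basophil markers at 217 CPM, against 1357, 0.939 and 0.715 CPM in the deleted B cells, and the part of these in the values was not tested. Over the 14 B-lineage markers other than Cd79a the share ran from 4.53% to 139% with a median of 26.2%, and over the 8 genes from 6.46% to 187% with a median of 18.8%.

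Grip1 and Rnase12 also differed along the count of Cd79a, as the plot of levels by Cd79a count shows. Grip1 was highest at the edge of the B-cell rule, at 867 CPM (792 to 947) in the 147 cells with 3 Cd79a UMIs, against 377 CPM in the 243 cells with 2, and it fell to 617 CPM at 4 to 9, 178 CPM at 10 to 29 and 126 CPM at 30 or more. Rnase12 went the other way, from 146 CPM at 2 Cd79a UMIs and 307 CPM at 3 to 611 CPM at 4 to 9, 959 CPM at 10 to 29 and 975 CPM at 30 or more. Median depth was 2867 to 2919 UMIs in the bins from 2 to 9 Cd79a UMIs, 4812 at 10 to 29 and 9909 at 30 or more. Mdga1 was also highest at 3 Cd79a UMIs, at 167 CPM (135 to 204), with 150.4 CPM at 4 to 9, 102.3 CPM at 10 to 29 and 75.6 CPM at 30 or more. Thinned to 2000 UMIs, Grip1 was detected in 46.0% of cells at 4 to 9 Cd79a UMIs and 20.0% at 30 or more, and Rnase12 in 64.0% and 80.6%, the same directions.

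**Figure D2:**
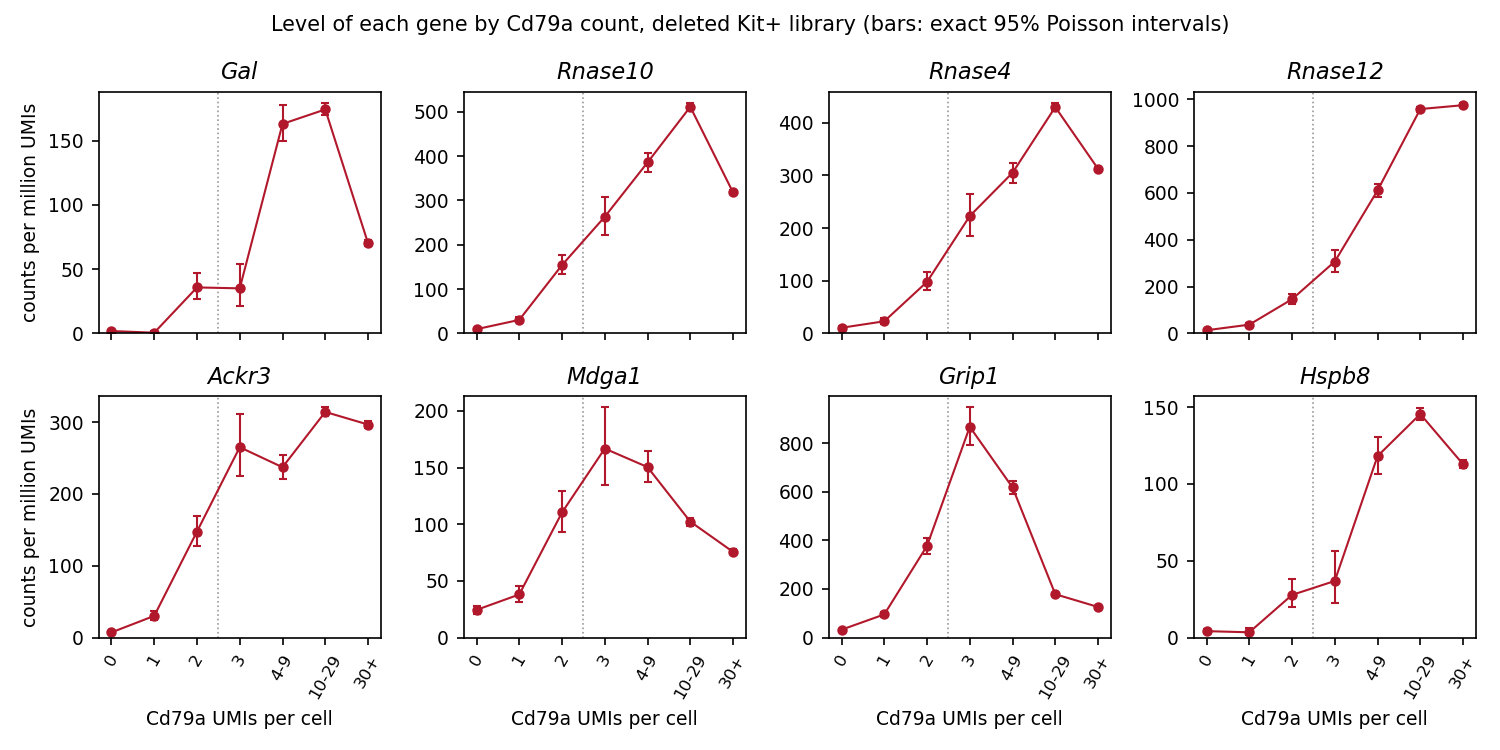
Level of each gene in CPM across 7 bins of Cd79a UMIs per cell in the deleted Kit+ library, with exact 95% Poisson intervals and a dotted line where the B-cell rule begins, at 3 UMIs. Grip1 peaks at 867 CPM and Mdga1 at 167 CPM at 3 UMIs, Rnase12 climbs to 975 CPM at 30 or more, and Gal, Rnase10, Rnase4, Ackr3 and Hspb8 are highest at 10 to 29.

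Of the other 6 genes, 4 were higher just inside the rule than just outside it by more than counting error. How many of all genes were higher there was not counted, and the rule served in choosing the genes, so nothing is read from the 4. Markers of other cells were summed over wider groups only. The granulocyte genes summed to 32854 CPM in the 561 cells with 1 to 2 Cd79a UMIs and to 1357 CPM in all deleted B cells. Their levels at 2 and at 3 Cd79a UMIs were not taken, and their part in the difference was not tested. Between 2 and 3 Cd79a UMIs, just outside and just inside the rule, Rnase10 went from 154 to 263 CPM, Rnase4 from 98.0 to 223 CPM, Ackr3 from 148 to 265 CPM and Mdga1 from 110.4 to 167 CPM. Hspb8 was at 27.8 (19.7 to 38.1) and 36.9 CPM (22.8 to 56.3), which overlap, and Gal at 35.8 and 35.1 CPM. Gal reached 174 CPM at 10 to 29 Cd79a UMIs, Rnase10 511 CPM, Rnase4 429.8 CPM, Hspb8 145 CPM and Ackr3 314 CPM. At 30 or more they were at 70.3, 318, 313, 113 and 297 CPM, lower for each of these 5 genes.

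Cells with a UMI of the cycling gene Mki67 had less of 7 of the 8 genes per UMI. How many of all genes were lower there was not counted, so nothing is read from the 7. Gal was at 73.1 CPM in the 6112 deleted B cells with Mki67 and 168 CPM in the 6479 without, and Rnase10 at 283 and 561 CPM. Rnase4 was at 284 and 466 CPM, Ackr3 at 264 and 363 CPM, Mdga1 at 71.8 and 115 CPM, and Hspb8 at 104 and 156 CPM. Rnase12 was at 928 (921 to 936) and 998 CPM (988 to 1008), a smaller gap, and Grip1 was alike at 164 and 165 CPM. Cells with Mki67 had a median of 9181 UMIs and those without had 4835, so cycling and depth moved together here.

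Most deleted B cells held several of the 8 genes at once. The median was 4 genes per cell, 139 of the 12591 cells (1.10%) held all 8 and 74 (0.588%) held none. At 2000 UMIs per cell the median was 3. In the 1338 cells of the B220lo pro-B gate the median was 0, and 11 cells held 4 or more of the 8 genes. None of those 11 held more than 6. By sex-linked UMIs, 7 of them had Y-linked UMIs and no Xist, 2 had both and 2 had neither. Of the 1022 cells of the gate with Xist and no Y-linked UMI, 0 held 4 or more.

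To see whether the genes occurred in the same cells beyond what depth gives, the share of deleted B cells with both of a pair was set against the product of their single shares within 10 bins of depth. The observed number was above the product for 27 of the 28 pairs, and for 25 when all cells were thinned to 2000 UMIs. Pairs of other genes were not counted, so this is not read as particular to these pairs. Most ratios were small. The largest was for Gal and Grip1, found together in 685 cells where the product gave 511 (ratio 1.34, and 1.49 thinned). Ackr3 and Mdga1 followed with 3309 cells against 2641 (1.25, thinned 1.44), and Gal and Hspb8 with 613 against 501 (1.22, thinned 1.36). The neighbours on chromosome 14 were close to the product, at 1.04 for Rnase10 and Rnase4, 1.02 for Rnase10 and Rnase12 and 1.01 for Rnase4 and Rnase12 (thinned 1.14, 1.06 and 1.05). Rnase12, present in nearly all cells, leaves little room for a higher ratio in its pairs. Rnase12 and Grip1 were the pair below the product, at 0.995, and thinned the pairs below it were Grip1 with Rnase12 (0.973), Ackr3 (0.974) and Hspb8 (0.995). Cells of 1 library are not replicates, so these ratios are descriptions.

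**Figure D3:**
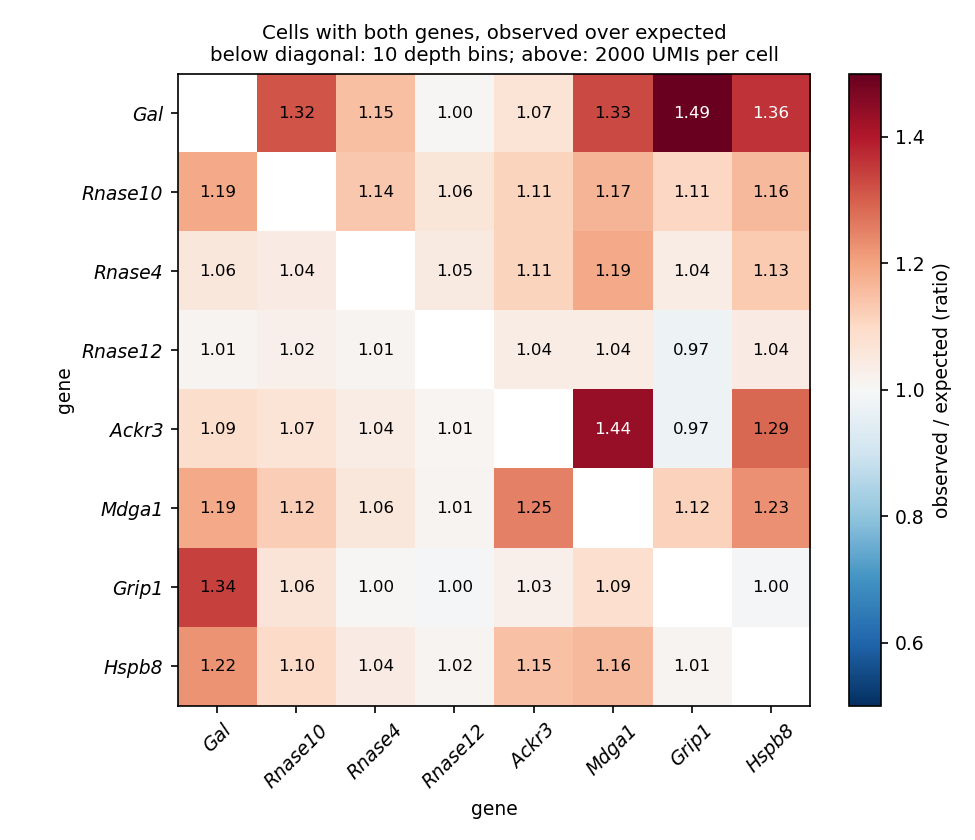
Number of deleted B cells with both genes of a pair, over the number expected from their single shares, with the product taken in 10 depth bins below the diagonal and in cells thinned to 2000 UMIs above it. The ratio is highest for Gal and Grip1 (1.34 and 1.49) and for Ackr3 and Mdga1 (1.25 and 1.44), and every pair with Rnase12 lies between 0.97 and 1.06.

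Assembled heavy-chain contigs, which played no part in choosing the genes, split the deleted B cells further. Of the 12591 cells, 2929 had a productive heavy-chain contig, in 565 clones defined by the same V and J segments and the same junction, and 13 clones held at least 50 barcodes. All 8 genes were detected more often in the 1743 cells of these large clones than in the 9662 cells without a contig. The same count was not made over all genes, so it is not read as particular to the 8. Rnase10 was found in 82.1% (80.2 to 83.9) against 64.0% (63.0 to 65.0), at 574 and 357 CPM. Hspb8 was found in 59.0% against 46.7%, Ackr3 in 68.0% against 57.8% and Grip1 in 57.5% against 47.8%. Mdga1 was found in 41.4% against 33.7%, Gal in 12.6% against 7.89%, Rnase4 in 86.6% against 81.6% and Rnase12 in 96.2% against 94.3%. Cells with a contig in a smaller clone lay near or below those without one, with Rnase10 in 64.9% of 1186 cells and Gal in 6.66%. Median depth was 6145 UMIs in the large clones and 6447 in the cells without a contig, and Mki67 was found in 46.3% and 48.6%. Cells of a clone descend from a shared cell, and clones of 1 library are not replicates of a condition, so no test was made.

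The clones were set side by side by the lowest and the highest, picked after their values were seen, at median depths from 5264 to 7936.5 UMIs. The intervals of the lowest and highest unthinned share did not overlap for 6 of the 8 genes. The same count was not made over all genes, so it is not read as a trait of the 8. Gal was detected in 19 of 93 cells of clone 7 (20.4%, 12.8 to 30.1) and in 2 of 75 cells of clone 9 (2.67%, 0.325 to 9.30), where clones are numbered by size. Its level ran from 3.23 CPM in clone 9 over a median of 116 CPM to 555 CPM in clone 13. Clone 9, at a median of 7636 UMIs, was also the lowest in Rnase10, at 66.7%, but had the highest share with Ackr3, at 89.3% (80.1 to 95.3). Thinned to 2000 UMIs it was still the lowest in Rnase10 (36.0%), but clone 10 was higher in Ackr3 (58.6% against 54.7%), as it was by level (528 against 398 CPM). Clone 6 had the lowest share with Ackr3, 48.4% (38.0 to 58.9), and the highest with Grip1, 73.7% (63.6 to 82.2). Hspb8 ran from 29.1% in clone 5 to 76.2% in clone 13, and Mdga1 from 30.1% in clone 7 to 61.9% in clone 13, whereas thinned the highest were clone 12 for Hspb8 (57.4%) and clone 3 for Mdga1 (30.2%). The lowest and highest clones overlapped within their intervals for Rnase4 (83.9% to 91.8%) and Rnase12 (93.7% to 100%), whose shares were high in every clone. By level they did not overlap. Rnase4 ran from 325 CPM (295 to 358) in clone 4 to 593 CPM (512 to 684) in clone 12. Rnase12 ran from 899 CPM (828 to 974) in clone 7 to 1224 CPM (1123 to 1332) in clone 11.

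**Figure D4:**
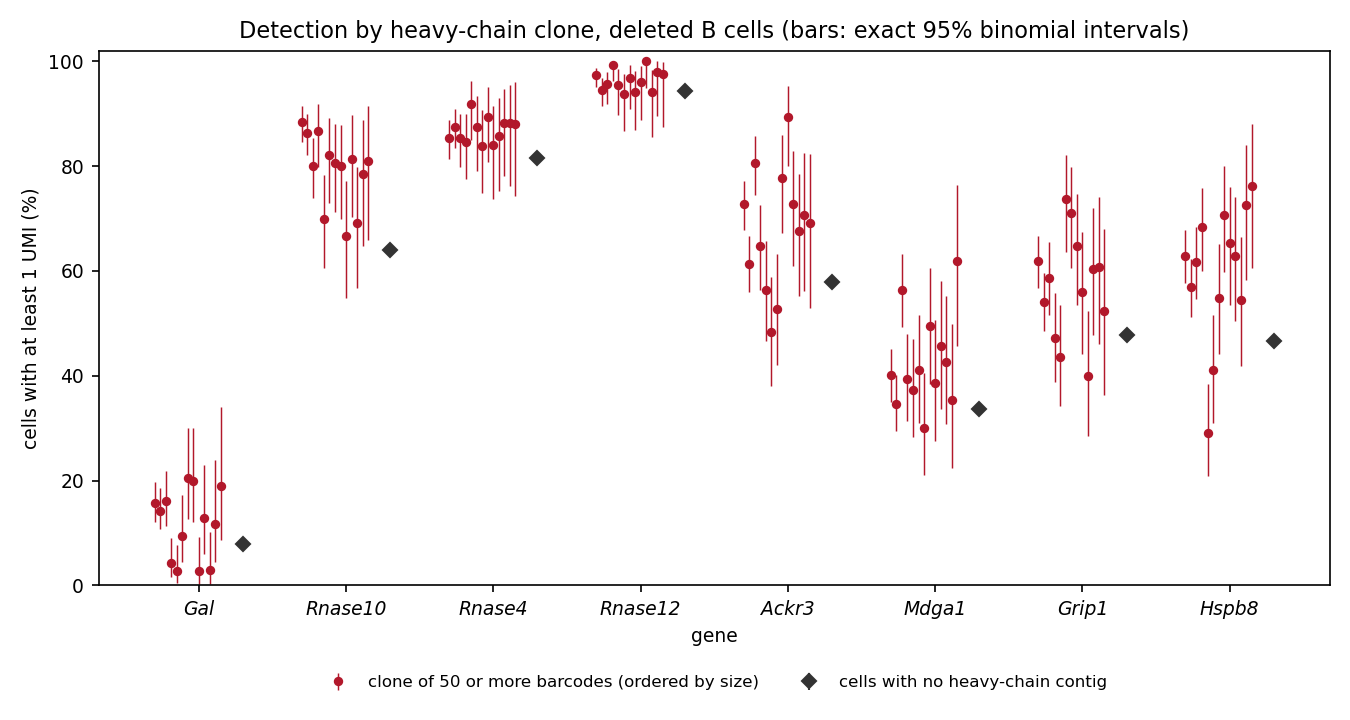
Share of cells with at least 1 UMI of each gene in the 13 heavy-chain clones of at least 50 barcodes in the deleted library, ordered by size, and in deleted B cells with no heavy-chain contig, with exact 95% binomial intervals. Clones spread from 2.67% to 20.4% for Gal and from 29.1% to 76.2% for Hspb8, while all lie at 93.7% or more for Rnase12.

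Gal-positive cells were not 1 clone. Of the 1061 cells with Gal, 299 had a heavy-chain contig and these fell in 60 clones, with 19.7% in the largest clone, which held 12.9% of all deleted B cells with a contig. Of the 271 cells with at least 10 Gal UMIs, 77 had a contig, in 22 clones. Between deleted B cells with and without Gal, Kcnma1 (a potassium channel) was at 94.97 and 17.47 CPM and was detected in 19.8% and 3.59% of cells, and Sema3e (a secreted guidance protein) was at 30.7 and 4.875 CPM, with 49.1% and 63.3% of their UMIs in 100 cells. The granulocyte genes Ngp, Camp and S100a9 also led this list, but 100 cells held 96.6% to 97.9% of their UMIs.

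The same ranking was made for the other genes. Granulocyte or haemoglobin transcripts held by few cells were among the 5 leading genes for each of them. Apart from these, cells with Rnase12 had more of Pnp2 (434 against 103 CPM) and Pnp (1736 against 666 CPM), which encode purine nucleoside phosphorylases and lie near it on chromosome 14, and of Rnase10 (391 against 176 CPM). The 674 cells without Rnase12 were shallower, at a median of 3773 against 6628 UMIs, and had more of the granulocyte markers (4038 against 1263 CPM) and of the later B-cell markers (134 against 5.93 CPM), and the part of these in the difference was not tested. Cells with Rnase4 had more Ang (89.3 against 42.6 CPM), with the overlap of these loci as a limit, and cells with Rnase10 had more Hs3st2 (110 against 46.1 CPM). Il1rapl2 was at 64.3 CPM in cells with Ackr3 and 10.1 CPM in those without, and at 82.5 and 22.6 CPM for Mdga1, but 100 cells held 55.5% of its UMIs. Colec12 was at 53.6 and 23.4 CPM for Hspb8, with 35.2% of its UMIs in 100 cells. All of these are differences between cells of 1 library.

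The chromosome 14 genes had neighbours that were high too. Of the 53 genes other than the 8 whose starts lay within 200 kb of a start of theirs, 25 had enough counts, 7 were at least 4-fold higher in deleted than in B220lo B cells and 1 was lower, where 5.23% and 6% of all genes tested were. The 5 on chromosome 14 were Pnp2 (423 against 7.74 CPM), Ang (82.5 against 0.946 CPM), Rnase11 (31.8 against 0.0557 CPM), Pnp (1699.8 against 163 CPM) and Rnase9 (3.90 against 0.0742 CPM). Rnase6, only 32831 bases from the start of Rnase4, went the other way, at 0.174 CPM against 124 CPM. The start of Rnase11 lies 7498 bases from that of Rnase12, and Apex1 and Osgep on the far side of Pnp were at log2 ratios of 1.59 and 1.53. Gal had no such neighbour, as its 5 tested ones ranged from -0.14 to 0.63. Next to Ackr3, Iqca had 6.85 CPM against no UMI, and Grip1os3, antisense to the start of Grip1, had 10.1 against 0.260 CPM. How strand was used in counting is not given in the sources used here, so reads of Grip1 and Grip1os3 cannot be told apart where they overlap.

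Other genes of the same families and pathways were looked up from lists. Of 18 genes of the ribonuclease A family and its inhibitor, 5 had enough counts, Ang, Rnase9 and Rnase11 were 4-fold higher in deleted than B220lo B cells and Rnase6 was lower, with a median log2 ratio of 2.19 beside 0.03 over all genes tested. In this comparison 5.23% of all genes tested were 4-fold higher and 6% lower, which the counts below stand beside too. The inhibitor Rnh1 was at 114 against 81.0 CPM. None of 5 genes of the galanin system, the receptors Galr1, Galr2 and Galr3 included, had enough counts. Of the 10 genes of the CXCL12 system 6 were tested, and Cxcr4, the other receptor of CXCL12, was lower at 18.3 against 94.2 CPM, while the arrestins Arrb1 and Arrb2 stayed under 4-fold. Against the B220lo pro-B gate, where 4.41% of all genes tested were 4-fold lower, none of the 5 tested genes of this list was, and Cxcr4 was at 21.9 CPM in control Kit+ cells. Among 10 partners of GRIP1, Gria2, a glutamate receptor subunit, stood at 422 against 3.60 CPM and Ephb2 was lower, of 5 tested. Among 9 partners of HSPB8, Bag3 was higher at 11.3 against 0.705 CPM, of 4 tested, but it was at 10.3 CPM in control Kit+ cells. The lists were made with earlier results of these data known.

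Genes most like each of the 8 were ranked by Pearson's r of log2(CPM + 1) over 12 groups of cells, which are the 4 libraries each split by 0, 1 to 2 or at least 3 Cd79a UMIs. The 12 groups share libraries and the deleted B cells weigh heavily in them, so r is a description. Gal was most like B230110C06Rik (r = 0.998) and Sh3gl3 (0.997), and Rnase10 most like Gm43154 (0.984) and the heavy-chain segment Ighv1-62-1 (0.971). Ackr3 was also most like Ighv1-62-1 (0.997), and Hspb8 was most like Ighv1-62-3 (0.983) and Ly6c1 (0.981), a surface protein. Rnase4 was nearest to Hspb8 (0.9504) and Rnase10 (0.948) of the same 8, Rnase12 to Gm11946 (0.969) and Arhgdig (0.968), Grip1 to Efna5 (0.954), an ephrin, and Mdga1 to Aldh1l1 (0.954).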

How the data were processed

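Bone marrow cells were captured singly in 4 libraries with version 2 of the 5′ kit of 10x Genomics, per the labels' protocols. The deposited matrices hold raw UMI counts per gene and barcode, made by the authors with Cell Ranger 7.1.0 and build mm10, per the submitters' processing notes, and the deposited contig tables hold UMI counts per assembled contig. The members and lists were chosen with earlier results of these data known.

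A barcode needed 1000 UMIs, 500 genes and no more than 10% mitochondrial UMIs to be kept. Scrublet (scanpy 1.11.5, expected share 8%) scored doublets. Its own thresholds had not worked in every library, so a fixed score of 0.25, set after the scores were seen, removed 840, 1168, 580 and 949 barcodes of the control Kit+, deleted, SI and B220lo libraries. UMIs were summed per population. For log2 ratios 1 CPM was added to each level, which understates changes of low genes, and a gene counted as higher from 4-fold with at least 100 UMIs in the higher population. Of 32285 gene identifiers, 32158 were in GENCODE M21.

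All 8 members were named. Other genes were named when past 4-fold in the family lists, when starting within 200 kb of a member, as 1 of the 3 genes most like a member, or as 1 of the 5 with the highest ratio (pseudocount 10 CPM) between deleted B cells with and without it. The result of 1 family list is not reported here. Gates by Kit, Xist and Y-linked UMIs were added after the data were seen. In a simulation of deleted against B220lo B cells over 32285 genes, 93.5% of 200 changed genes came back within 0.5 log2 units. Other cell filters, gates, scalings, pseudocounts and depths were tried as alternatives.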

Additional observations from a re-analysis of the deposited data

Results flagged for a closer look

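Cells with Y-linked UMIs and some of the 8 genes appeared among control B cells. In the control B220lo library 11 cells with at least 3 Cd79a UMIs held Y-linked UMIs and no Xist UMI, although that library as a whole held Xist at 547 CPM. They drew attention because their sex-linked UMIs went against the rest of their library. Those UMIs had no part in the Cd79a rule or the pro-B gate, but they define gates added after the data were seen. Also, 10 of the 11 held 2 or more of the 8 genes. Between them the 11 cells held 84 UMIs of Rnase12, 30 of Rnase4, 30 of Ackr3, 23 of Rnase10, 21 of Grip1, 8 of Hspb8 and 2 of Mdga1, and none of Gal. The 21 Grip1 UMIs were all in 1 of the 11 cells. In the Mll3/4SI Kit+ library 2 such cells were found, which held Rnase12, Grip1, Ackr3, Rnase10, Rnase4, Mdga1 and Hspb8. No cell of this kind was found among the 47 control Kit+ B cells.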

How the results depend on the processing

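The counts of genes past 4-fold, of pairs above the product and of genes more frequent in large clones stayed within 1.5 times their value under every alternative run. Pairs above the product ranged from 25 (thinned to 2000 UMIs) to 28 of 28 (no depth bins, or Cd79a at least 1). Of 432 log2 ratios recomputed for the 8 genes, 432 were positive, 355 lay within the counting interval and 77 outside it in the same direction. These contrasts chose the genes and the alternatives largely re-used the same cells. Nothing is therefore read from the signs or from the steady counts past 4-fold. With 10 CPM as pseudocount, Rnase10 against B220lo B cells went from 7.79 to 5.19, and with Xist-bearing comparison cells, an alternative added after the data were seen like that on granulocyte and erythroid UMIs, it went to 8.21. Grip1 against the deleted cells without Cd79a moved most under thinning, from 2.30 to 0.46. Thinning also gives every thinned cell the same weight. Of the 278 Grip1 UMIs in the cells without Cd79a, 269 were in the 163 cells that passed neither gate. The parts of depth and of cell mixture in this shift were not tested. Against the B220lo pro-B gate with Kit, also added later, Grip1 stood at a log2 ratio of 1.65, under 4-fold, and at 6.22 without the cells that lacked Xist or held Y-linked UMIs. Levels under about 3 UMIs could not be told from 0 at this depth. No paired analysis was possible because each group had 1 library.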
